A study of Mus musculus with 24 samples.

Results

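The response of mouse pancreatic islet cells to palmitate (PA) was measured separately in the 2 batches of libraries that the records name, and the 2 responses were then compared. All 24 libraries of the study entered the comparison: 12 of batch 1 (S1 to S12) and 12 of batch 2 (S13 to S24), each with 6 PA and 6 BSA libraries. The islet cells came from wild type mice, were dispersed, and were transfected with a control antisense oligonucleotide (Ctr ASO) or with an ASO against the 5'tRF Glu(CTC), a fragment of a glutamate transfer RNA (αGlu). They were then cultured with BSA-bound PA or with its carrier BSA only, so that each combination of ASO, treatment and batch held 3 libraries. The labels say neither what distinguished the batches nor which libraries shared a culture or animals. The main fit therefore has no term for a replicate, and its p-values measure the spread between libraries with any such pairing left out. The study takes each replicate of primary cells from a different animal and its groups from the same animal. It describes the replicates of this transcriptome as independent experiments, so they are not technical repeats by its account. The library numbers run in 6 sets of 4 that each hold every combination of ASO and treatment once. Deviations from the group means correlated at a median of 0.152 within these sets and -0.08 across sets of a batch. Taking deviations from a mean of 3 lowers the latter value. A fit with a term for each set assumes that a set is such a replicate and was added after seeing the data. It is called the blocked fit and is given for part of the calls that it changes. Neither a dose nor an exposure time is given in the labels. A response is the log2 fold change of PA over BSA in 1 batch, adjusted for the ASO, and the difference is the response in batch 1 minus the response in batch 2.

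Palmitate is a saturated fatty acid that islet cells take up, burn in mitochondria or store as neutral lipid. Fatty acids and their derivatives bind PPAR receptors, which switch on genes of fatty acid transport and oxidation. A separate pair of regulators, the SREBPs, switches on genes of sterol and unsaturated fatty acid synthesis when membranes are short of sterol. Prolonged exposure to saturated fatty acids is also known to stress the endoplasmic reticulum (ER) of beta cells.

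The libraries held 18214719 to 35001979 counts, and 17367 to 20051 genes had at least 1 count per library. Between the replicates of a treatment and batch, the median Spearman correlation of a library with the others was 0.984 to 0.994. The biological coefficient of variation was 15.1% over all libraries, 15.9% within batch 1 and 13.7% within batch 2. Beta cell markers were abundant in every library, with summed levels of 103000 to 157000 CPM in batch 1 and 133000 to 176000 CPM in batch 2. Xist stayed at 0.77 to 2.53 CPM and the Y-linked Ddx3y at 51.4 to 115 CPM in all libraries. Markers of digestive enzyme-secreting acinar cells stood apart most clearly between the batches: their summed level in BSA libraries was 6940 to 27400 CPM in batch 1 and 567 to 864 CPM in batch 2. Libraries S1 (Ctr BSA, lowest total count), S21 (Ctr BSA, highest macrophage marker level) and S23 (Ctr PA, highest level of mitochondrially encoded transcripts) stood apart from their groups. Since these are bulk libraries, fewer cells of a type and less RNA per cell cannot be told apart.

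Most of what PA did in 1 batch it also did in the other. Of 15916 genes tested, 5096 (32%) passed an adjusted p below 0.05 in batch 1, 2711 of them (17%) higher and 2385 (15%) lower with PA. In batch 2, 4430 genes (27.8%) passed, 2178 (13.7%) higher and 2252 (14.1%) lower. The same direction was called in both batches for 3209 genes (20.2%), 1635 raised and 1574 lowered, whereas opposite directions were called for 6 (0.0377%). The difference of the responses passed for 11 genes (0.0691%), higher in batch 1 for 5 (0.0314%) and in batch 2 for 6 (0.0377%). This number was 26 without S1 and 22 without S23. In the blocked fit the difference passed for 111 genes (0.697%), higher in batch 1 for 73 and in batch 2 for 38, with all 11 among them, and opposite directions were called for 22. That fit called 3142 genes higher and 2815 lower in batch 1, 2602 and 2788 in batch 2, and 1991 and 1982 in both. At an unadjusted p below 0.05, the difference passed for 1075 genes (6.75%), of which 707 (4.44%) were higher in batch 1 and 368 (2.31%) in batch 2. A further 1881 genes passed in batch 1 and not in batch 2, and 1215 the other way round. Of these 1881 and 1215 genes, the difference itself passed for 1 and 4. At the study's own threshold (unadjusted p below 0.05 and more than a 2-fold change), 5.53% of genes passed in batch 1, 6.52% in batch 2, 3.22% in both with the same sign and 1.54% for the difference.

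**Figure D1:**
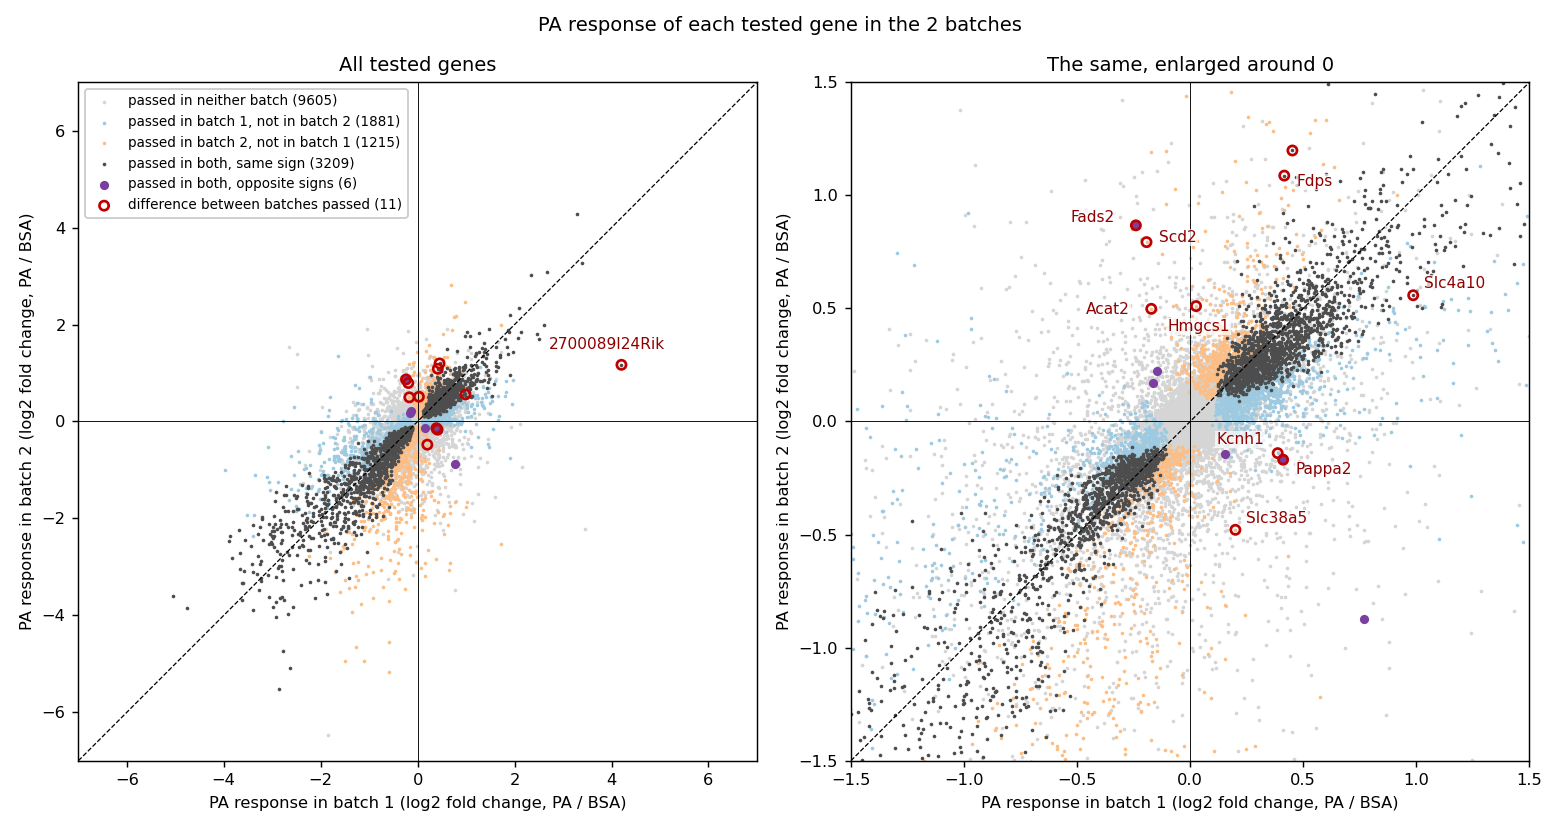
Response to PA of each tested gene in batch 1 (x axis) and batch 2 (y axis), both as log2 fold change of PA over BSA, for all genes (left) and enlarged around 0 (right). Each point is a gene, the colour gives the batches in which it passed, red rings mark the 11 genes with a called difference, and the dashed line marks equal responses. Most points lie along the line, and the rings sit away from it. The left panel leaves 2 genes outside its axes.

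The sizes of the repeated responses can be set side by side. Among the 3209 repeated genes the median absolute log2 fold change was 0.40 in batch 1 and 0.36 in batch 2, and the median absolute difference was 0.09, set against a median standard error of that difference of 0.11. These genes were chosen for passing in both batches with the same sign, which by itself favours small differences. In 437 of them the log2 fold change exceeded 1 in size in both batches, and 385 of these were lowered and 52 raised. Across the 15916 genes, which share libraries, depth and pathways and are not independent, Pearson's r between the responses was 0.719 and Spearman's rho 0.733. With each batch fitted alone, the choice of genes in 1 batch was independent of the measurement in the other. Of 4521 genes called in batch 1 and tested in batch 2, 98.1% had the same sign there and 76.9% passed an unadjusted p of 0.05 with that sign, while 39.8% of all genes tested in batch 2 passed that p. In the reverse direction, 97.7% of 4320 genes kept their sign in batch 1 and 77.6% passed, against 40.3% of all genes. The slope of the second response on the first was 0.84 from batch 1 to batch 2 and 0.792 from batch 2 to batch 1.

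Genes that carry fatty acids into mitochondria and oxidise them were raised in both batches. Of 27 tested genes of mitochondrial fatty acid oxidation, 15 rose in both (55.6%, where 10.3% of all genes rose in both) and none fell, with a median log2 fold change of 0.36 in batch 1 and 0.37 in batch 2. Cpt1a (chromosome 19, 3322334 to 3385733, GRCm38), the rate-limiting enzyme of mitochondrial fatty acid entry, showed the smallest p of the repeated genes. Its lowest, median and highest CPM were 31.9, 40.3 and 47.6 in the BSA libraries of batch 1 and 162, 167 and 186 in the PA libraries. In batch 2 they were 29.1, 31.1 and 35.3 with BSA and 154, 159 and 162 with PA. No PA library overlapped a BSA library in either batch, as held for 14.6% of all genes in batch 1, 13.9% in batch 2 and 7.02% in both. The log2 fold changes of Cpt1a were 2.09 (SE 0.07, adjusted p = 3.07e-16) and 2.33 (SE 0.07, adjusted p = 3.15e-17), and their difference of -0.24 had an adjusted p of 0.604.

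The other 12 of the 27 did not pass in both batches. Slc25a20 and Acaa2 were among the 15 that did. Slc25a20, the carrier that exchanges acylcarnitines across the inner membrane, went from a median of 11.3 CPM with BSA to 30.7 CPM with PA in batch 1 and from 11.4 to 32 CPM in batch 2. Acaa2, the mitochondrial thiolase of the last step of each oxidation cycle, rose by 1.62 (SE 0.13) and 1.54 (SE 0.13) on the log2 scale. Acat1, a mitochondrial thiolase of ketone body and isoleucine metabolism outside this list, had medians of 49.7 CPM with BSA and 105 CPM with PA in batch 1. In batch 2 these medians were 65.3 and 144 CPM, so that its level was higher in batch 2 under either treatment while its fold changes were 1.09 (SE 0.07) and 1.06 (SE 0.07). Aldh9a1, an aldehyde dehydrogenase of carnitine synthesis, rose by 1.36 (SE 0.05) and 1.44 (SE 0.05), again from a higher BSA level in batch 2 (49.2 to 57.4 CPM) than in batch 1 (39.3 to 47.1 CPM).

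The 10 raised genes with the smallest larger p of both batches also held Rassf2, Pxmp4, Lpcat3, Hpgds, Cyb5r1 and Dcaf12l1. Lpcat3, which puts polyunsaturated chains into membrane phospholipids, went from 47.5 to 60.4 CPM with BSA to 85.6 to 103 CPM with PA in batch 1, and from 63.6 to 68.5 CPM to 127 to 146 CPM in batch 2. Hpgds, a prostaglandin D synthase, rose by 1.61 (SE 0.07) in batch 1 and 1.15 (SE 0.07) in batch 2, and its difference of 0.46 had an adjusted p of 0.0855 (0.00198 in the blocked fit). Pxmp4, a peroxisomal membrane protein, rose by 1.27 (SE 0.08) and 1.44 (SE 0.08), and the RAS-binding protein gene Rassf2 by 1.41 and 1.14. None of the 20 genes named for a repeated response had overlapping PA and BSA libraries in either batch, as held for 7.02% of all genes. They were chosen by p in these same libraries, so this adds nothing to their calls.

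**Figure D2:**
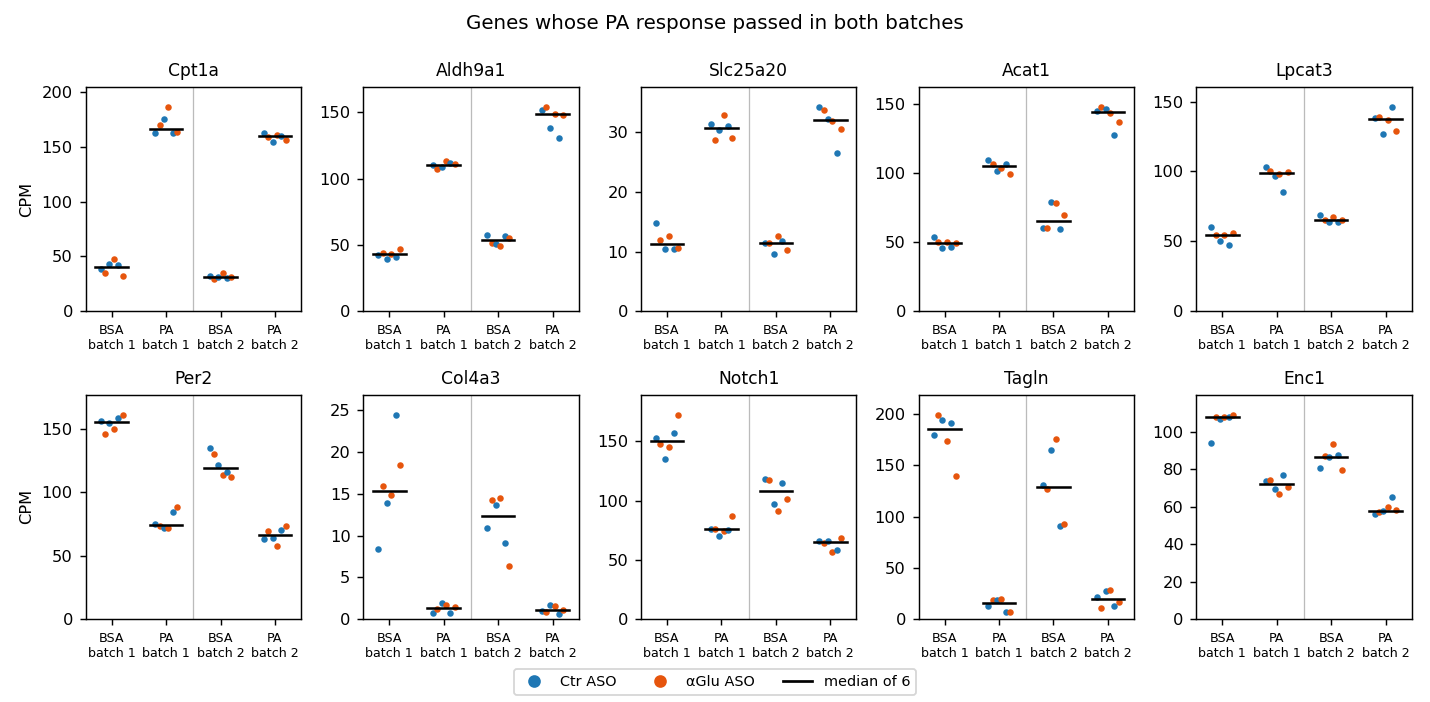
CPM of 10 genes whose response to PA passed in both batches, by treatment and batch. Each point is a library (blue Ctr ASO, orange αGlu ASO), the bar is the median of 6, and each y axis starts at 0. PA and BSA libraries are apart in both batches for every gene shown, while the BSA libraries of the batches do not overlap for Aldh9a1, Acat1, Lpcat3, Per2, Notch1 and Enc1.

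Other fatty acid-responsive genes outside mitochondrial oxidation repeated too. Among 21 further PPAR target genes, 10 rose in both batches (47.6%, beside 10.3% of all genes). In 18 of 21 the response was higher in batch 1, as in 8550 of all 15916 genes. In the blocked fit the difference passed for 2 of the 21 (0.697% of all genes) and opposite directions were called for 2 (22 of all 15916 genes). Angptl4, a secreted inhibitor of lipoprotein lipase, rose by 3.39 (SE 0.36) and 3.26 (SE 0.38). Plin2, which coats lipid droplets, rose by 1.43 (SE 0.12) and 1.39 (SE 0.13). Acot1, an acyl-CoA thioesterase with near-identical paralogs whose reads may be shared, rose by 2.61 (SE 0.30) and 1.98 (SE 0.33). Of 22 peroxisomal oxidation genes, 8 rose and 1 fell in both batches. The one that fell was Pxmp2, a peroxisomal membrane channel measured at few counts, with -2.27 (SE 0.39) and -1.73 (SE 0.42).

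Genes of the stress response to amino acid shortage and unfolded proteins also repeated. Of 21 targets of the transcription factors ATF4 and CHOP, 13 rose in both batches, 13 in all in batch 1 and 17 in batch 2. Over all genes, 10.3% rose in both, 17% in batch 1 and 13.7% in batch 2. Trib3, a pseudokinase induced by CHOP, rose by 0.52 (SE 0.07) and 0.95 (SE 0.07), with an adjusted p of the difference of 0.139 (0.0142 in the blocked fit), and the cystine transporter gene Slc7a11 by 0.65 (SE 0.16) and 0.73 (SE 0.16). In batch 1, 2 of the 21 fell, and 19 of 21 had the higher response in batch 2, where 7366 of all 15916 genes did. Of 19 ER chaperones and degradation factors, 11 rose in both and none fell in either. Hspa5, the ER chaperone BiP, rose by 0.44 (SE 0.07) and 0.40 (SE 0.07).

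Genes of the basement membrane, the sheet of matrix beneath epithelia and vessels, fell in both batches. Of 21 genes of the basement membrane, 18 fell in both batches (85.7%, where 9.89% of all genes fell in both). The list medians were -1.52 and -1.51. In the blocked fit 20 fell in both (1982 of all 15916 genes did). The difference passed for 2 laminin genes there, and both fell further in batch 2. Lama5 had -0.932 in batch 1 and -1.602 in batch 2, and Lamb3 had -0.294 and -1.195. Col4a3, a collagen IV chain, had lowest, median and highest levels of 8.44, 15.3 and 24.4 CPM with BSA and 0.678, 1.35 and 1.93 CPM with PA in batch 1. In batch 2 its values were 6.3, 12.3 and 14.5 CPM with BSA and 0.644, 1.06 and 1.75 CPM with PA. These gave log2 fold changes of -3.63 (SE 0.29, adjusted p = 1.34e-09) and -3.33 (SE 0.29, adjusted p = 1.09e-08). Tagln, an actin-binding protein of contractile cells, was at 140 to 199 CPM with BSA and 6.62 to 19.8 CPM with PA in batch 1, and at 91.2 to 176 CPM and 11.3 to 28.8 CPM in batch 2. It lies across genes on the other strand, and its difference of -0.94 (SE 0.35) had an adjusted p of 0.527 (0.0441 in the blocked fit).

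Markers of fibroblasts and stellate cells moved with these genes. Of 15 such markers, 12 fell in both batches (9.89% of all genes did), with medians of -2.39 and -2.72. Their summed level was 1030 to 1950 CPM with BSA and 71.1 to 421 CPM with PA in batch 1, and 606 to 2760 CPM and 126 to 387 CPM in batch 2, without overlap in either. The part of these cells in the fall of the matrix genes was not tested. Acta2, smooth muscle actin, fell by 3.24 (SE 0.32) in batch 1 and 2.89 (SE 0.32) in batch 2 on the log2 scale.

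The remaining lowered genes named by their p-values came from several functions. Per2, a repressor of the circadian clock, had medians of 156 CPM with BSA and 74.4 CPM with PA in batch 1 and of 119 and 66.7 CPM in batch 2, and its fold changes were -0.99 (SE 0.06) and -0.87 (SE 0.06). It belongs to 9 of 19 clock genes that fell in both batches, together with Dbp and Per1, where 9.89% of all genes fell in both. Notch1, the receptor of Notch signalling, fell by 0.99 (SE 0.07) and 0.76 (SE 0.07). Enc1, Rnf145, Akap5, Ehd2, Tgfb1i1 and Gm49394 completed the group, with changes from -0.37 for the ubiquitin ligase gene Rnf145 to -2.21 for Gm49394. Gm49394 overlaps Igf2 on the same strand, so the reads of these genes may not be separable.

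Of the 11 genes whose response differed between the batches, 6 responded more in batch 2, among them Fads2, Scd2, Fdps, Acat2 and Hmgcs1. These 5 act in the synthesis of sterols or unsaturated fatty acids. Fads2 (chromosome 19, 10062765 to 10101746, minus strand) encodes the delta-6 desaturase of polyunsaturated fatty acid synthesis. In batch 1 its lowest, median and highest levels were 29, 32.7 and 39.1 CPM with BSA and 27, 28.1 and 29.9 CPM with PA, which overlap. In batch 2 they were 22.1, 24.5 and 35.6 CPM with BSA and 42.9, 46.7 and 53.1 CPM with PA, which do not. The log2 fold changes were -0.24 (SE 0.08, adjusted p = 0.0315) and 0.87 (SE 0.08, adjusted p = 5.85e-08), and the difference of -1.11 (SE 0.12) had an adjusted p of 1.47e-05. The fall in batch 1 no longer passed when S3, S5, S6, S9, S10, S11 or S12 was left out (adjusted p up to 0.0896), whereas the difference passed without any single library.

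Scd2, a stearoyl-CoA desaturase that makes monounsaturated fatty acids from saturated ones, showed a like pattern. Its levels in batch 1 ran from 324 to 464 CPM with BSA and from 341 to 377 CPM with PA. In batch 2 the BSA libraries lay at 351 to 425 CPM and the PA libraries at 553 to 762 CPM. The fold changes were -0.19 (SE 0.08, adjusted p = 0.0509) and 0.79 (SE 0.08, adjusted p = 3.83e-08), with a difference of -0.99 (SE 0.11, adjusted p = 1.47e-05). Its change in batch 1 had an adjusted p of 0.00802 in the blocked fit. Scd1, its paralog with which reads may be shared, had 0.37 (SE 0.19) and 1.28 (SE 0.20), and passed in batch 2. In the blocked fit it passed in both batches and its difference had an adjusted p of 0.0071.

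Fdps, Acat2 and Hmgcs1 act in sterol synthesis. Fdps (chromosome 3, 89093588 to 89101959), which makes farnesyl diphosphate, rose in both batches, from 80.4 to 95.1 CPM to 113 to 124 CPM in batch 1 and from 72.9 to 79.9 CPM to 134 to 174 CPM in batch 2. Its fold changes of 0.42 (SE 0.06) and 1.09 (SE 0.06) differed by -0.67 (SE 0.08, adjusted p = 6.14e-05). Acat2, the cytosolic thiolase that opens the mevalonate pathway, had BSA medians of 15.9 CPM in batch 1 and 13 CPM in batch 2 and PA medians of 13.9 and 18.8 CPM, with fold changes of -0.17 (SE 0.07, adjusted p = 0.0685) and 0.50 (SE 0.07, adjusted p = 1.28e-05). Its difference of -0.67 (SE 0.10) had an adjusted p of 0.00226.

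Hmgcs1, the HMG-CoA synthase of the mevalonate pathway, ranged from 109 to 150 CPM with BSA and from 132 to 145 CPM with PA in batch 1. In batch 2 it ranged from 104 to 120 CPM with BSA and from 141 to 179 CPM with PA. Its fold changes were 0.03 (SE 0.07) and 0.51 (SE 0.07), and its difference of -0.48 (SE 0.09, adjusted p = 0.0345) no longer passed in 16 of the 24 fits that left out 1 library, where its adjusted p reached 0.0971. The stretch before its start site is shown because Hmgcs1 was the only one of the 3 genes with a RefSeq promoter entry among those higher in batch 2 (the others were Fads2 and Acat2) whose 300-base window held the letters TCACNCCAC, a form of the sterol regulatory element searched on both strands. That motif was present in 1.44% of all 27025 genes with a promoter entry and in 1 of the 16 entries for the cholesterol genes below. The sequence is RefSeq's for GRCm38.p6, plus strand, the 150 bases before the start site at chr13:119690201-119690350, with the motif in capitals. The match is a description of letters and was looked for after the values were seen.
Hmgcs1: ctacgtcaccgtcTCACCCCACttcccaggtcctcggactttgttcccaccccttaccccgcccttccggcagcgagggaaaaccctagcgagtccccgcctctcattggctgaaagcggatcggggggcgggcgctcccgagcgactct

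The BSA libraries of the 2 batches overlapped for Fads2, Scd2, Acat2 and Hmgcs1, and for Fdps those of batch 2 lay below those of batch 1. With PA, batch 2 lay wholly above batch 1 for Fads2, Scd2, Fdps and Acat2 and overlapped it for Hmgcs1. The same direction of the difference was found within each ASO. For Fads2 it was -1.09 in the Ctr libraries and -1.12 in the αGlu libraries, and for Scd2 -0.99 and -0.98. These are parts of the libraries in which the genes were called, so the shared direction adds nothing to their calls. Fads2, Scd2 and Fdps passed in the αGlu libraries alone, and no gene passed in the Ctr libraries alone, where 463 genes had an unadjusted p below 0.05.

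**Figure D3:**
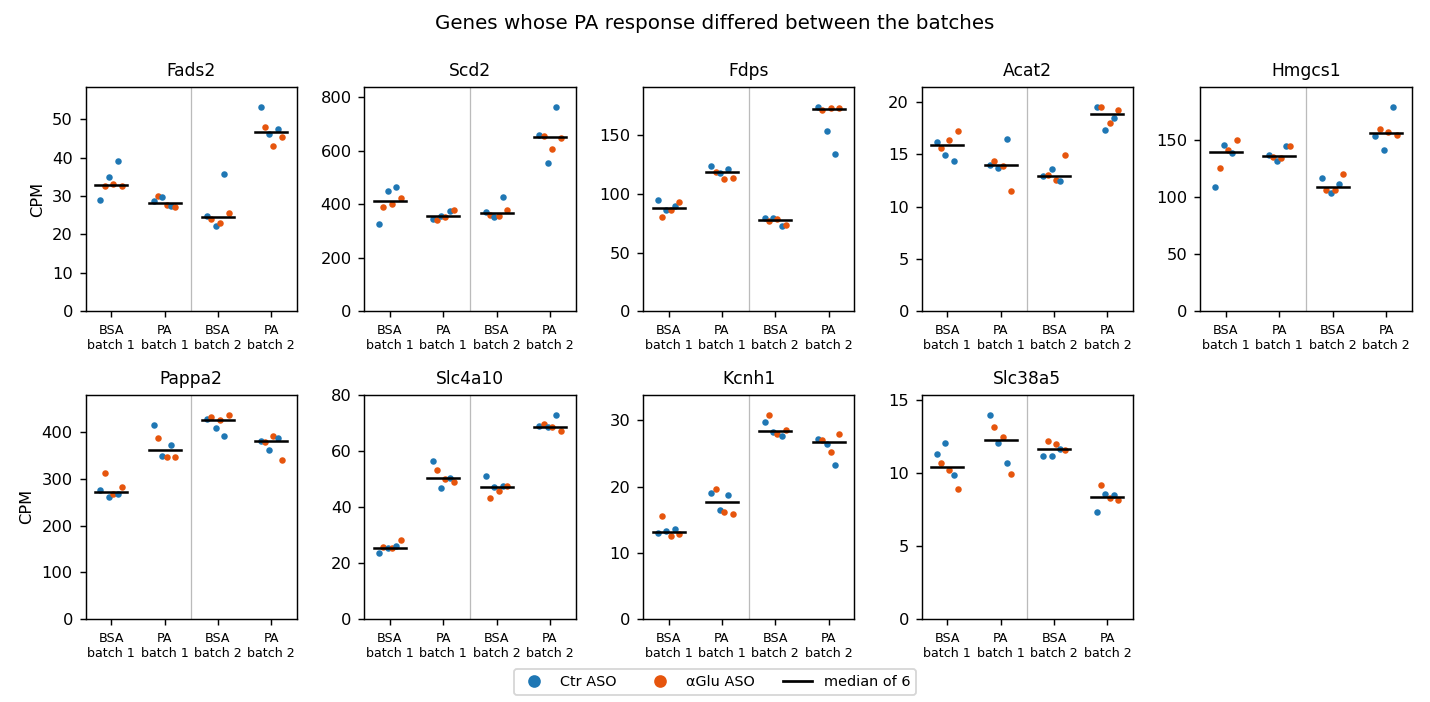
CPM of 9 of the 11 genes with a called difference of the response to PA between batches, by treatment and batch. Each point is a library (blue Ctr ASO, orange αGlu ASO), the bar is the median of 6, and each y axis starts at 0. The 5 lipid genes reach their highest levels with PA in batch 2, while Pappa2, Slc4a10 and Kcnh1 have higher BSA levels in batch 2 than in batch 1.

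The wider cholesterol pathway leaned the same way. Of 24 genes of cholesterol synthesis and uptake, 7 rose in batch 1 and 20 in batch 2 (of all genes, 17% and 13.7%). In batch 1, 1 fell, and none did in batch 2. All 7 of batch 1 were among the 20, and 23 of the 24 had the higher response in batch 2, where 7366 of all 15916 genes did. The list median was 0.13 in batch 1 and 0.45 in batch 2, beside medians over all tested genes of 0.012 and 0.001. The difference passed for 3 of the 24 (12.5%, against 0.0691% of all genes), among them Fdps and Hmgcs1, and 17 had an unadjusted p below 0.05. The number called ran from 2 without S3 to 7 without S1, and it was 10 without S1, S21 and S23. It was 11 in the blocked fit (0.697% of all genes), 11 with DESeq2, 0 in the Ctr libraries alone and 1 in the αGlu libraries alone. The summed level of the list was 2030 to 2300 CPM with BSA and 2260 to 2530 CPM with PA in batch 1, and 2020 to 2160 CPM and 2680 to 3040 CPM in batch 2. The BSA levels of the batches thus overlapped and the PA levels did not.

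The members spread along the pathway in an uneven way. Insig1, which retains the SREBP machinery in the ER, rose by 0.43 (SE 0.07) and 0.88 (SE 0.07), with an adjusted p of the difference of 0.0652 (0.00263 in the blocked fit). Sqle, the squalene epoxidase, and Dhcr7, the reductase of the last step, were close in both batches, with 0.45 and 0.56 for Sqle and 0.48 and 0.67 for Dhcr7. Srebf2, which encodes the SREBP of the sterol pathway, had 0.01 and 0.10 and passed in neither, and Ebp was the member whose response was higher in batch 1, by 0.06 (SE 0.12). In the Ctr libraries alone and in the αGlu libraries alone, 23 of 24 members had the higher response in batch 2. These are parts of the same libraries, so this is no independent support.

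Fatty acid synthesis showed the lean for part of its genes. Of 17 genes, 4 rose and 3 fell in batch 1, and 12 rose and 2 fell in batch 2. Over all genes, 17% rose and 15% fell in batch 1, and 13.7% rose and 14.1% fell in batch 2. The difference passed for Scd2 and Fads2, and for 4 genes in the blocked fit (0.697% of all genes). Fads1, the delta-5 desaturase, rose in both batches by 0.23 (SE 0.06) and 0.65 (SE 0.06), with an adjusted p of the difference of 0.0689 (0.0116 in the blocked fit). Elovl6, which lengthens palmitate, rose by 0.48 (SE 0.07) and 0.63 (SE 0.07), and Elovl5 by 0.34 (SE 0.08) and 0.24 (SE 0.08). Acly, which makes cytosolic acetyl-CoA from citrate, fell in both, by 0.27 (SE 0.06) and 0.22 (SE 0.06).

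The response was higher in batch 1 for 5 genes, namely Pappa2, Slc4a10, Kcnh1, Slc38a5 and the long non-coding RNA gene 2700089I24Rik. Pappa2 (chromosome 1, 158711727 to 158980490), a protease that cleaves IGF-binding proteins, had lowest, median and highest levels of 261, 272 and 313 CPM with BSA and 346, 360 and 414 CPM with PA in batch 1. In batch 2 the order was turned, with 392, 426 and 436 CPM with BSA and 339, 380 and 392 CPM with PA. Its fold changes were 0.41 (SE 0.05, adjusted p = 2.32e-06) and -0.17 (SE 0.05, adjusted p = 0.0189), and the difference was 0.58 (SE 0.08, adjusted p = 0.00022). The fall in batch 2 did not pass without S24 (adjusted p = 0.0591).

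The transporters and the channel gene had levels of their own in each batch. Slc4a10, a sodium-coupled bicarbonate transporter, rose from 23.6 to 28.2 CPM to 46.8 to 56.3 CPM in batch 1 and from 43.3 to 51.1 CPM to 67.1 to 72.8 CPM in batch 2, and its fold changes of 0.99 (SE 0.05) and 0.56 (SE 0.05) differed with an adjusted p of 0.00661. Kcnh1, a voltage-gated potassium channel, was at 12.6 to 15.6 CPM with BSA and 15.8 to 19.6 CPM with PA in batch 1 and at 27.7 to 30.8 CPM and 23.2 to 27.9 CPM in batch 2. Its fold changes were 0.39 (SE 0.07, adjusted p = 8.47e-05) and -0.14 (SE 0.06, adjusted p = 0.108), and its BSA level in batch 2 lay above both treatments of batch 1. Kcnh1 overlaps Hhat on the other strand, and how the counting treated strand is not known here. Slc38a5, an amino acid transporter, had 0.20 (SE 0.08, adjusted p = 0.0727) and fell by 0.48 (SE 0.09, adjusted p = 0.000157) in batch 2. In the blocked fit its change in batch 1 passed too (adjusted p = 0.0329). Its BSA libraries overlapped between batches at 8.96 to 12.2 CPM, and its PA libraries did not, at 9.97 to 14 CPM in batch 1 and 7.37 to 9.2 CPM in batch 2.

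The non-coding gene 2700089I24Rik was near the limit of detection and below the mean of 10 counts that the naming rule asked for, so it is named after its values were seen. Over the 6 libraries it had 4 counts in all with BSA and 89 with PA in batch 1, and 40 and 98 in batch 2. The PA libraries of the batches overlapped, at 0.279 to 0.681 and 0.443 to 0.953 CPM, while the BSA libraries did not. Its fitted difference of 3.04 (adjusted p = 0.0459) depends on the prior count, and it passed in 6 of the 24 fits that left out 1 library.

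Opposite directions were called for Fads2, Pappa2, Lpin1, Mttp, Mgll and D10Wsu102e. For the phosphatidate phosphatase gene Lpin1 the fold changes were -0.15 (SE 0.06, adjusted p = 0.0468) and 0.22 (SE 0.06, adjusted p = 0.00366), and for Mttp, which loads lipid onto lipoproteins, 0.16 (SE 0.05) and -0.14 (SE 0.05). Mgll, the monoacylglycerol lipase, had 0.77 (SE 0.27) and -0.87 (SE 0.31) at levels of 0.635 to 10.5 CPM. The difference did not pass for these 3 genes (adjusted p = 0.0689, 0.0771 and 0.193). D10Wsu102e, named after its values were seen, had -0.17 (SE 0.06) and 0.17 (SE 0.06), and its difference had an adjusted p of 0.272. In the blocked fit the difference passed for all 4, with adjusted p-values of 0.00219 for Lpin1, 0.0247 for Mttp, 0.000666 for Mgll and 0.0247 for D10Wsu102e. The call of Lpin1 in batch 1 was lost in 19 of 24 fits that left out 1 library, that of Mttp in batch 2 without S15, S17, S22 or S24, that of Mgll in batch 1 without S2, S7, S8, S9 or S10, and that of Mgll in batch 2 in 9 fits.

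Some groups had unlike numbers of calls in the 2 batches without a called difference in any member. Of 76 cytosolic ribosomal protein genes, 4 rose in batch 1 and 42 in batch 2 (of all genes, 17% and 13.7%). The higher response was in batch 2 for 7366 of all 15916 genes and for 75 of the 76. Their medians were 0.10 and 0.26, and 2 had an unadjusted p of the difference below 0.05. The summed level was 17000 to 22500 CPM with BSA and 19100 to 25300 CPM with PA in batch 1, and 14000 to 15400 CPM and 13400 to 19800 CPM in batch 2. The lowest of the last range was S23, and without it 68 genes rose in batch 2 and 44 had an unadjusted p of the difference below 0.05. Without S16 27 rose in batch 2, and in batch 1 the number ran from 1 without S2 to 8 without S1. Blocked by set, 7 and 49 rose (of all 15916 genes, 3142 and 2602).

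**Figure D4:**
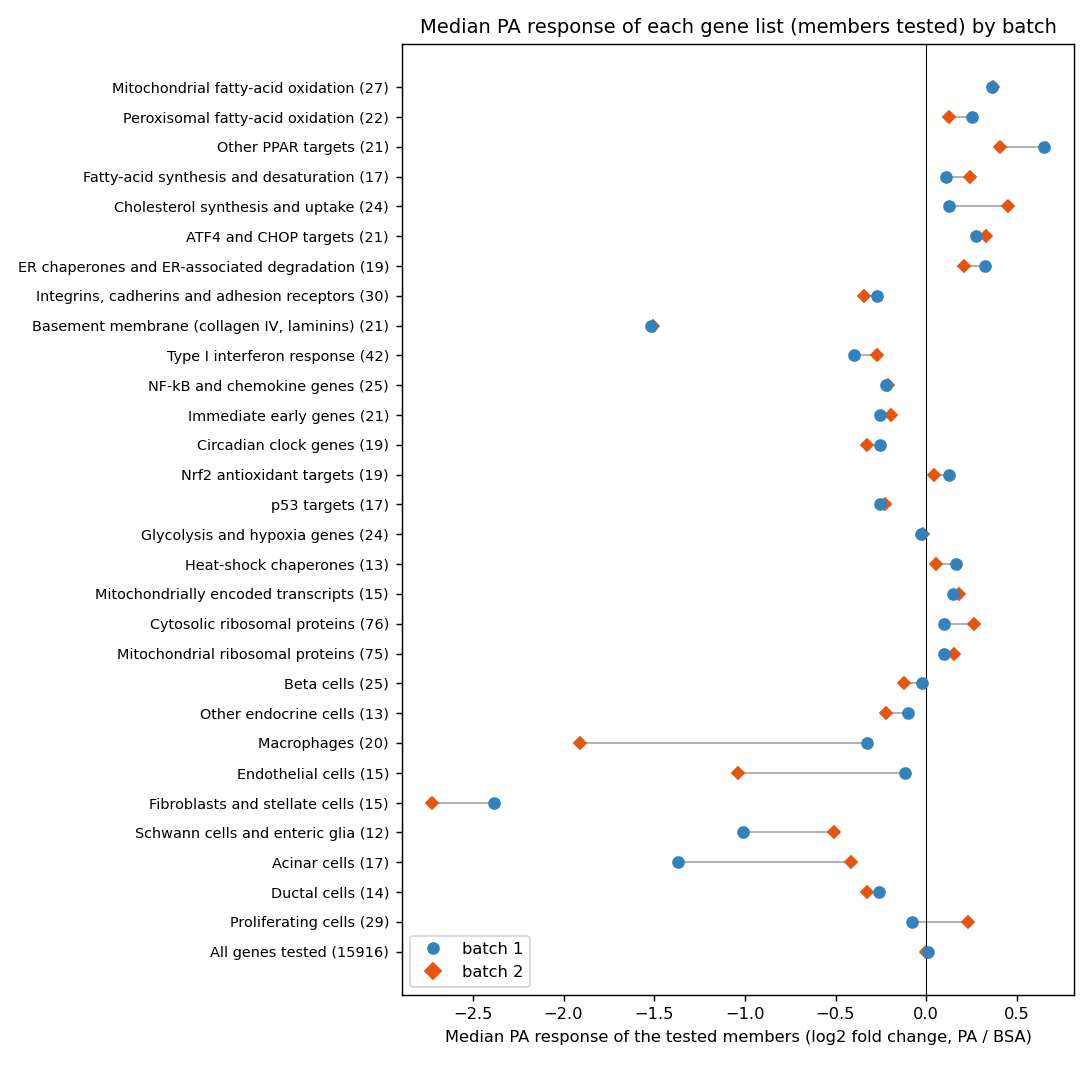
Median response to PA (log2 fold change) of the tested members of each gene list in batch 1 (blue circles) and batch 2 (orange diamonds), with the number of members in parentheses. Mitochondrial fatty acid oxidation and basement membrane genes have nearly the same median in both batches, and the medians of cholesterol synthesis, macrophage, endothelial and acinar genes lie apart.

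Markers of other cell types than endocrine cells divided between the batches in both directions. Of 20 macrophage markers, 1 fell in batch 1 and 13 in batch 2 (of all genes, 15% and 14.1%). Their medians were -0.33 and -1.91. None passed the difference, and 10 had an unadjusted p below 0.05, a number that was 4 without S1, S21 and S23 and 1 with limma-voom. Csf1r, the receptor of the macrophage growth factor, fell in both by 1.48 (SE 0.29) and 2.26 (SE 0.30). C1qa, a complement gene of macrophages, passed in neither, with a median of 66.9 CPM with BSA and 72.6 CPM with PA in batch 1 and of 107 and 103 CPM in batch 2, and it had the highest mean count of the list (2275). C1qa was thus a large part of the summed level. In batch 2 of the blocked fit C1qa had -0.078, while C1qb and C1qc of the same list had -3.347 and -3.218. The summed level therefore does not stand for the other markers of the list. Its medians were 103 CPM with BSA and 100 CPM with PA in batch 1. In batch 2 these medians were 196 and 132 CPM. The sum ranged from 92.7 to 162 CPM with BSA and from 84.7 to 154 CPM with PA in batch 1. In batch 2 it ranged from 169 to 461 CPM with BSA and from 99.7 to 147 CPM with PA. Without S21, the library at 461 CPM, 11 fell in batch 2. Without S8, the highest PA library of batch 1, 7 fell in batch 1 and the unadjusted number dropped to 2.

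Endothelial markers leaned the same way, with 1 of 15 lower in batch 1 and 6 in batch 2 (of all genes, 15% and 14.1%). Their medians were -0.12 and -1.04. Emcn, an endothelial surface glycoprotein, had -0.45 (SE 0.40) in batch 1 and fell by 2.07 (SE 0.44) in batch 2. Summed over the list, BSA and PA libraries overlapped at 30.4 to 117 and 34.4 to 96 CPM in batch 1 and at 50.9 to 79.1 and 20.8 to 58.7 CPM in batch 2. The number that fell in batch 2 was 4 without S24 and 9 without S15, and without S6 none fell in batch 1. In the blocked fit 10 fell in batch 2 (2788 of all 15916 genes did) and the difference passed for 1, Kdr.

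Acinar markers went the other way. Of 17, 13 fell in batch 1 and none in batch 2 (of all genes, 15% and 14.1%). Their medians were -1.37 and -0.41, and none passed the difference. Pnlip, pancreatic lipase, fell by 1.93 (SE 0.34) in batch 1 and had -0.83 (SE 0.37, adjusted p = 0.0938) in batch 2. The summed level of the PA libraries was 4320 to 12800 CPM in batch 1 and 312 to 757 CPM in batch 2, so the response was read from a far lower level in batch 2. Without S9 3 fell in batch 2, and in the blocked fit 7 did, Pnlip among them (adjusted p = 0.00783). Of all 15916 genes, 2788 fell in batch 2 in the blocked fit. The part of acinar, macrophage and endothelial cells in the differences of other genes was not tested, and what else separated the batches cannot be told apart from it.

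**Figure D5:**
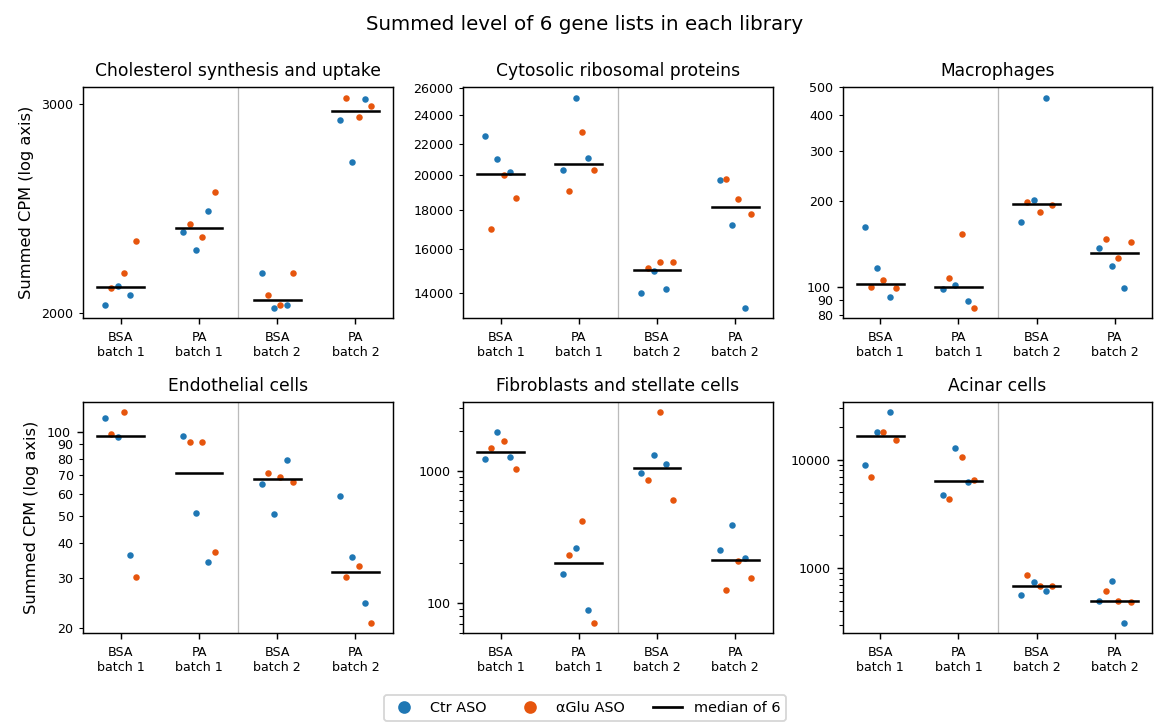
Summed CPM of 6 gene lists in each library, on log axes that differ between panels, by treatment and batch. Each point is a library (blue Ctr ASO, orange αGlu ASO) and the bar is the median of 6. C1qa is a large part of the macrophage sum. The cholesterol list separates PA from BSA further in batch 2 than in batch 1, the fibroblast list falls with PA in both batches, and the acinar list is lower in every library of batch 2 than in any of batch 1.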

How the data were processed

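Stranded mRNA libraries of dispersed mouse islet cells were annotated and counted by the authors with the QIAGEN RNA-seq Analysis Portal, and GRCm38 stands in their processing notes. The aligner and strand setting were not given in the sources used here. Per gene and library, the deposited table holds the authors' exon read counts (41549 genes), taken unchanged, with empty cells read as 0. Another 72 value columns (RPKM, TPM and CPM) were not used, and 1 row without a gene name held 0 counts. Total counts were 18214719 to 35001979 per library. Genes were kept by edgeR's filterByExpr (15916 genes, 99.95% of the counts), scaled by TMM and fitted with edgeR 4.0.16 (R 4.3.3), with a coefficient for each combination of treatment and batch and a term for the ASO. Quasi-likelihood tests gave the PA response in each batch and the difference of the responses, and p-values were adjusted by the Benjamini-Hochberg method over all tested genes. A gene passed or was called at an adjusted p below 0.05. CPM values are TMM-scaled counts relative to library size, not corrected for gene length. The model was also run on simulated counts in which few genes changed, unlike here, so that run is no measure of its performance on these data.

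Genes were named by these rules, at a mean of at least 10 counts per library: the 10 raised and 10 lowered repeated genes with the smallest larger p, up to 10 genes on each side of a called difference, up to 5 with opposite calls, and up to 3 of each kind per list. The members and the 29 gene lists were chosen with earlier results of these data known. Where another list member is given it was chosen after its values were seen. Alternatives used DESeq2 1.42.0, limma 3.58.1, other scalings, filters and models, each ASO or batch alone, the study's threshold (fold change above 2 and unadjusted p below 0.05) leaving out each of the 24 libraries and, added after seeing the data, a term for each set of 4 consecutive libraries (the labels do not name the sets). Some genes that meet these rules are not reported here, though the counts include them. Promoter sequences came from RefSeq and gene positions from GENCODE, both on GRCm38.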

Additional observations from a re-analysis of the deposited data

Results flagged for a closer look

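The response to PA differed between the batches, by the test of the difference itself, among others for the following genes. It was higher in batch 1 for Pappa2 (0.58), Kcnh1 (0.53), Slc4a10 (0.43), Slc38a5 (0.68, with a fall in batch 2) and 2700089I24Rik (3.04). It was higher in batch 2 for Fads2 (-1.11), Scd2 (-0.99), Fdps (-0.67), Acat2 (-0.67) and Hmgcs1 (-0.48). These are log2 differences, batch 1 minus batch 2. The value for 2700089I24Rik rests on 4 counts in the BSA libraries of batch 1.

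Single libraries lay far from the other 5 of their treatment and batch in 17 of 252 groups of 6 examined, where chance alone gives about 1 in 20. Among genes, in CPM, these were Lpcat3 in S11 (85.6, the others 96.5 to 103), Dcaf12l1 in S23 (85.7, the others 67.1 to 71.4), Gm49394 in S3 (8.19, the others 13.2 to 16.7) and Enc1 in S1 (94.1, the others 107 to 109). Notch1 in S12 was at 87.2 CPM, Tagln in S10 at 140, Kcnh1 in S2 at 15.6 and Fads2 in S21 at 35.6. Lpin1 in S24 was at 100 CPM, Mttp in S9 at 46.8 and 2700089I24Rik in S11 at 0.279. Their part in the responses was not tested, other than by leaving out each library.

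Among gene lists, as mean log2 CPM, S23 was apart for mitochondrial fatty acid oxidation (5.08, the others 5.20 to 5.23), for mitochondrially encoded transcripts (11.32, the others 10.27 to 10.50) and for mitochondrial ribosomal proteins (3.98, the others 4.19 to 4.28). S1 was apart for mitochondrial ribosomal proteins (4.24, the others 4.03 to 4.06), S12 for peroxisomal fatty acid oxidation (4.31, the others 4.35 to 4.37) and S21 for macrophage markers (3.32, the others 1.36 to 1.90). S23, a Ctr PA library of batch 2, thus stood apart in 3 lists at once.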

How the results depend on the processing

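The labels pair no libraries. A replicate block of 4 consecutive library numbers, which assumes that each such set is 1 preparation and was chosen after seeing the data, gave 5957 genes in batch 1, 5390 in batch 2, 3973 in both and 111 differences. Deviations from the group means correlated at 0.018 to 0.37 (median 0.152) in the 36 pairs of libraries within a set, 25 of them above 0.1, and at -0.306 to 0.118 (median -0.08) in the 72 pairs across sets of a batch, which a mean of 3 pushes below 0. No call of a named gene was lost with the block. Over all genes, the counts of called genes otherwise stayed within 1.5 times the reported ones under other scalings, filters, the voom fit and other ASO terms, except where given here. DESeq2 called 46 differences and leaving out S1, S21 and S23 together (chosen after seeing the data) gave 52, of which 10 and 11 were among the 11 reported. The study's threshold gave 880 genes in batch 1, 1038 in batch 2, 513 in both and 245 differences. The Ctr libraries alone gave 1404, 908, 610 and 0, and the αGlu libraries alone 3397, 2818, 1877 and 3, each fit holding fewer libraries. Leaving out 1 library at a time gave 4543 to 5769 genes in batch 1, 3854 to 4875 in batch 2, 2901 to 3504 in both and 9 to 26 differences, with 26 without S1 and 22 without S23. The share of batch 1 calls that passed in batch 2 was 75.3% with DESeq2, 80.5% without a filter, 81.4% at the study's threshold and 69.1% to 81.4% with 1 library left out. The reverse share was 74.2% at the study's threshold and 69.6% to 80.5% with 1 library left out. For the named genes no direction turned in any alternative. Of their values, 6380 kept their side of the threshold, 256 no longer passed and 9 passed anew, and 73 and 35 of the lost calls came from the Ctr and the αGlu libraries alone. The difference of Hmgcs1 passed in 16 of 35 alternatives and that of 2700089I24Rik in 11 of 34 (DESeq2 gave it no adjusted p), while each of the other 9 passed in at least 33. The cause of the other changes was not tested.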

Other observations

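Endocrine markers moved in both directions. Of 25 beta cell markers, 6 rose and 4 fell in batch 1, 2 rose and 4 fell in batch 2, and 20 had the higher response in batch 1. Over all genes 32% passed in batch 1 and 27.8% in batch 2. In the fit with a term for each set of 4 libraries, 10 beta cell markers fell in batch 2. Of all 15916 genes, 2788 did so in that fit. Ucn3, a peptide of mature beta cells, rose by 0.72 (SE 0.07) and 0.46 (SE 0.07), and the insulin gene Ins1 fell by 0.45 (SE 0.09) and 0.32 (SE 0.09). Mafa, a transcription factor of mature beta cells, fell by 0.36 (SE 0.09) and 0.33 (SE 0.09). Among 13 markers of other endocrine cells, 1 rose and 1 fell in both batches. Gc, the vitamin D-binding protein, went from a median of 85.5 to 180 CPM in batch 1 and from 90.5 to 171 CPM in batch 2, and Sst, the hormone of delta cells, fell by 0.63 (SE 0.16) and 0.62 (SE 0.16). None of the genes in these lists passed the difference, and 4 of each had an unadjusted p of it below 0.05. With the set term it passed for Gcg and Ttr. Gcg, the glucagon gene, then rose in batch 1 (0.269, adjusted p = 0.000343) and fell in batch 2 (-0.205, adjusted p = 0.0044).

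Of all genes tested, 15% fell in batch 1, 14.1% in batch 2 and 9.89% in both, and 10.3% rose in both. Of 42 type I interferon response genes, 14 fell in batch 1, 6 in batch 2 and 5 in both, 1 rose in both, and none had an unadjusted p of the difference below 0.05. The number that fell ran from 9 without S2 to 20 without S10 in batch 1, and from 4 without S21 to 11 without S23 in batch 2. With the set term 21 and 11 of these interferon response genes fell, beside 2815 and 2788 of all 15916 genes. Irf9, a transcription factor of that response, fell by 0.64 (SE 0.14) and 0.57 (SE 0.14). Of 25 NF-kB and chemokine genes, 6 fell in both, among them the adhesion receptor gene Icam1 with -2.04 (SE 0.24) and -2.31 (SE 0.25). Of 21 immediate early genes, 6 fell in both, with Nr4a1, a nuclear receptor, at -0.81 (SE 0.12) and -1.01 (SE 0.11). Of 17 p53 targets, 7 fell in both and none rose, with Tnfrsf10b, a death receptor, at -0.82 (SE 0.11) and -0.98 (SE 0.12). Of 30 integrins and other adhesion receptors, 11 fell and 1 rose in both, with the fibronectin receptor subunit Itga5 at -1.89 (SE 0.29) and -1.96 (SE 0.31).

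Over all genes, 15% fell in batch 1, and 9.89% fell and 10.3% rose in both batches. Of 24 glycolysis and hypoxia genes, 5 fell in both batches and none rose in both. With the set term 4 rose and 5 fell in both, as did 1991 and 1982 of all 15916 genes. Ldha, a lactate dehydrogenase subunit, had medians of 56.4 CPM with BSA and 22.6 CPM with PA in batch 1 and of 31 and 10.5 CPM in batch 2. Of 19 Nrf2 antioxidant targets, 6 rose in both, with the ferritin light chain gene Ftl1 at 0.46 (SE 0.08) and 0.58 (SE 0.08). Of 13 heat-shock chaperones, 2 rose and 1 fell in both: the mitochondrial chaperonins Hspd1 and Hspe1 rose, and the collagen chaperone Serpinh1 fell by 1.17 (SE 0.23) and 1.28 (SE 0.23). With the set term 6 of the 13 rose and 2 fell in both. Of 75 mitochondrial ribosomal protein genes, 14 rose in both. Of 15 mitochondrially encoded transcripts, 2 fell in batch 1 and none passed in batch 2.

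Ductal, glial and proliferation markers completed the lists. Of 14 ductal markers, 4 fell in batch 1, 6 in batch 2 and 2 in both, among them Sox9, and with the set term 10, 9 and 8 fell. Of all genes, 15% fell in batch 1, 14.1% in batch 2 and 9.89% in both, and 13.7% rose in batch 2. With the set term 2815, 2788 and 1982 of all 15916 genes fell. Of 12 markers of Schwann cells and enteric glia, 1 fell in batch 1 and none passed in batch 2. Of 29 proliferation genes, 2 fell in batch 1, 2 rose in batch 2, and the list medians were -0.08 and 0.23. None of the genes in these lists passed the difference, and with the set term the ductal marker Krt19 did.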
